A study of Mus musculus with 8 samples.

Results

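The response of mouse macrophages to lipopolysaccharide (LPS) was followed in cells that had also been given antibodies against CD36. The cells were RAW264.7, an established macrophage-like line from a mouse tumour induced by Abelson leukaemia virus, with the genotype WT in every group. The comparison set 2 libraries of cells given LPS together with anti-CD36 antibodies for 12 h against 2 libraries of cells given the antibodies alone, at a dilution of 1 in 100, for 12 h. These are 4 of the 8 libraries of the study. The other 4, which served as the same comparison without antibody, were 2 of untreated cells and 2 of cells given LPS at 50 ng/mL for 12 h. For the combination the labels state the time and no dose of either agent, and no group is labelled as given an antibody of another specificity. Of the 10639 genes in the table, 10289 reached an FPKM (fragments per kilobase of transcript, scaled to the size of the library) of at least 1 in at least 2 of the 8 libraries and were compared. The libraries were chosen by their labels and not by any measured value.

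LPS, a glycolipid of the outer membrane of Gram-negative bacteria, is handed by CD14 to the receptor pair of TLR4 and MD-2. The adaptor MyD88 then leads to NF-kB and AP-1, which switch on cytokine and chemokine genes, and the adaptor TRIF leads to interferon beta and a later wave of interferon-stimulated genes. CD36 is a scavenger receptor that takes up oxidized lipoproteins and long-chain fatty acids, and it has been described as a partner of TLR pairs in macrophages.

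The libraries held 47900000 to 71700000 reads by the depth recovered from the values. At that depth an FPKM of 0.0209 to 0.0313 corresponds to 3 reads for a gene 2000 bp long (counting error only). Both anti-CD36 libraries stood further apart than any other pair of replicates. Their Pearson correlation across genes was 0.966, against 0.992 to 0.997 in the other groups. In anti-CD36 replicate 1 the 13 transcripts of the mitochondrial genome took 15.7% of all FPKM. Replicate 2 had 6.59%, and the other 6 libraries had 3.28% to 6.62%. Ribosomal protein genes stood in the opposite order, at 7.54% and 12.5%. Because these libraries are the baseline of the comparison, a result that rests on 1 of them is given with and without it. The labels do not say whether replicates were separate cultures, so p-values measure library-to-library spread, possibly technical.

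With antibody present, LPS raised cytokine, chemokine, interferon and NF-kB genes and lowered genes of cell division, lipid synthesis and the hypoxia response. Differences are log2(FPKM + 1) of the combination minus anti-CD36 alone, a scale that understates changes of genes with low values. By limma, with Benjamini-Hochberg adjustment over all genes tested and a threshold of 0.05, 4844 genes were called, which is 47.1% of those tested (54.7% had an unadjusted p under 0.05). Of the genes called, 1580 were higher (15.4% of genes tested) and 3264 lower (31.7%), and 1391 (13.5%) were called with a difference of at least 1. Across all genes the median difference was -0.15 before and 0.01 after median-ratio size factors were applied. The split moved with the scaling. The higher share of calls was 32.6% as deposited, 50.1% with size factors (2364 of 4721 genes), 45.1% with quantile normalization (2068 of 4583), 20.3% with mitochondrially encoded genes left out (1083 of 5346) and 51.1% with a trend on gene length removed (2465 of 4820). Group directions below hold under these scalings unless stated. In bulk libraries, fewer cells of a type and less RNA per cell cannot be told apart.

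The largest rise was that of Csf3, which encodes the granulocyte growth factor G-CSF (chr11:98701263-98703629 of GRCm38, in the GENCODE M21 annotation). Its FPKM was 0.443 and 0.0987 with antibody alone and 2196 and 2034 with LPS added. It went from near the bottom of the table to among the most abundant transcripts in both libraries, a difference of 10.71 ± 0.25 (SE) (adjusted p = 2.4e-07). Il1b, the gene of the fever cytokine interleukin-1 beta, went from 0.317 and 0.448 to 1221 and 1156, and Il1a, its sister cytokine, from 0.159 and 0.0177 to 322 and 401. Ptgs2 encodes COX-2, the inducible enzyme of prostaglandin synthesis, and stood at 2.72 and 0.898 without LPS and 1338 and 1569 with it. Groups did not overlap in any of these genes, as was so for 24.9% of all genes in the direction of a rise and 45.5% in that of a fall. The remaining large rises were Ccl5, Cxcl2, Il27, Ccl22, Lif, Lcn2, Ccl3 and Ccl4, with differences from 6.68 (Ccl4) to 9.61 (Ccl5).

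The largest falls joined genes of unlike function. Ranbp3l, a nuclear export factor gene, had 54.6 and 56.4 with antibody alone and 0.824 and 0.594 with LPS (-5.05 ± 0.15 (SE), adjusted p = 7.8e-07). Selenbp1, which encodes a sulfur-metabolizing enzyme, went from 39 and 65.1 to 2.02 and 1.16. Dntt encodes the DNA polymerase that adds untemplated bases to antigen receptor genes in lymphocyte precursors, and it fell from 14.8 and 17.5 to 0.664 and 0.807. Abelson virus is known for transforming such precursors as well as macrophages. Cd24a, a surface glycoprotein gene, went from 37.5 and 29.4 to 2.84 and 3.55 and Scel, a gene of the epidermal envelope, from 21.8 and 12.1 to 0.516 and 0.418. Kbtbd11 fell from 59.6 and 75.5 to 7.79 and 7.79, and Ankrd37, a target of hypoxia-inducible factor, from 9.25 and 18.8 to 1.26 and 0.632. In all of them both libraries with LPS were low. Mir133a-2 also fell, by 3.21 ± 0.37, on values of a very short gene that rest on about 7 and 2 reads in the combination. Hpgd, Bnip3, ND1 and Alox5, which complete the 12, are given with their groups.

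**Figure D1:**
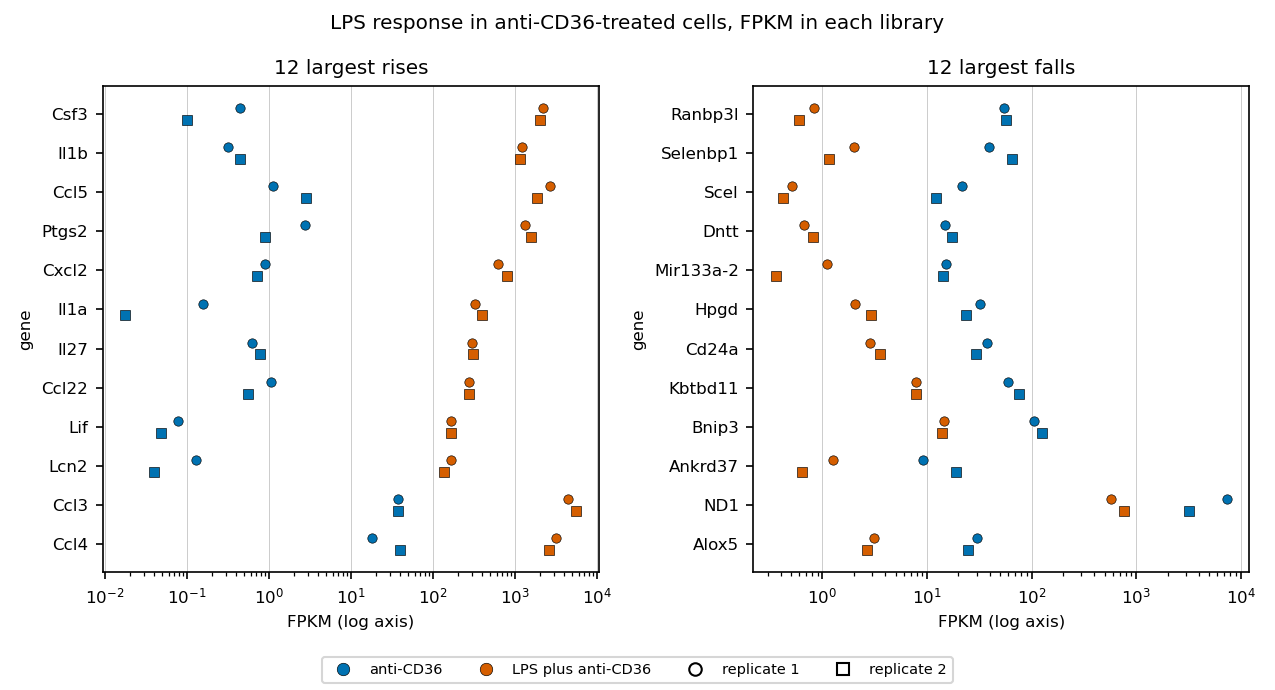
FPKM on a log axis of the 12 genes with the largest rises and the 12 with the largest falls after LPS in antibody-treated cells, with circles for replicate 1 and squares for replicate 2 of anti-CD36 alone and of the combination. In every gene shown both libraries of one group lie to the same side of both libraries of the other, as the choice of the genes requires, and Csf3 has the largest difference on the log2(FPKM + 1) scale.

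Among cytokines, the rise covered most of the genes tested. Every deposited gene was detected in every library, so genes silent without LPS may be missing. Of a list of 22 inflammatory cytokines, 15 were tested, 14 rose and 1 fell, against the 15.4% and 31.7% of all genes. Their median difference was 3.58, where all genes stood at -0.15, and 3.91 in the cells without antibody. Tnf, the early cytokine of macrophage activation, had 71.4 and 55.8 with antibody alone and 1058 and 1025 with LPS (4.02 ± 0.16 (SE)). Il27, whose product joins Ebi3 in a cytokine that restrains T cells, went from 0.613 and 0.785 to 302 and 309. Il1rn encodes the natural blocker of the interleukin-1 receptor, and it rose as well, from 8.56 and 4.48 to 215 and 223. The cytokine that fell was Il15, which sustains natural killer and memory T cells, from 2.42 and 2.72 to 1.08 and 0.785 (adjusted p = 0.0013). Lif, a cytokine of the interleukin-6 family, went from 0.0768 and 0.0481 to 164 and 164, a difference of 7.28 ± 0.10 (SE).

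All 10 chemokines tested from a list of 17 rose, against 15.4% of all genes, with a median difference of 6.09 (5.93 without antibody). Ccl3 and Ccl4 attract monocytes and T cells, and they were already expressed before LPS. Ccl3 stood at 37.3 and 37.4 with antibody alone and at 4388 and 5590.2 with LPS, the highest level among the chemokines named here. Ccl5 went from 1.13 and 2.85 to 2691 and 1861 and Ccl22, a ligand of CCR4 on regulatory T cells, from 1.06 and 0.555 to 278 and 277. The neutrophil attractant Cxcl2 had 0.888 and 0.716 without LPS and 621 and 797 with it (8.61 ± 0.16 (SE), adjusted p = 1.3e-07). Cxcl10, an interferon-induced chemokine, rose from 1.9 and 0.781 to 98.4 and 106.

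The promoter of Cxcl2 is shown because it holds a match to the sequence bound by NF-kB. The 250 bases before its RefSeq start lie at chr5:90903649-90903898 on the plus strand of GRCm38.p6, and capitals mark a match to a kappa-B-like motif (GGGA, any base, TT, any base, CC), 97 to 88 bases before the start.
Cxcl2: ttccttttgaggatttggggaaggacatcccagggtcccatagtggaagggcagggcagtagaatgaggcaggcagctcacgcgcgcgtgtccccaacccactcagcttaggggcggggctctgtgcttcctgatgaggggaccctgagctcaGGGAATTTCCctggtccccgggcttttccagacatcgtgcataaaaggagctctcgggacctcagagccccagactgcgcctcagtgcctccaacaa
Both strands of the windows from 250 bases before to 50 after each RefSeq start were searched, and 8068 of the 10289 genes tested had 1 or more of 10257 windows. This motif occurred in 1.4% of all windows, in 2 of 6 windows of the chemokines, in 10 of 26 (38.5%) of the NF-kB genes, in 1 of 11 (9.1%) of the inflammatory cytokines and in 3 of 32 (9.4%) of the mitosis genes. It occurred in 0 windows of the interferon-stimulated, DNA replication, cholesterol synthesis and HIF target genes. A match is a description of the letters and shows no binding.

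The NF-kB system answered with its own feedback genes. In a list of 24 NF-kB subunits, inhibitors and feedback genes, 23 were tested, 18 rose and 1 fell, against 15.4% and 31.7% of all genes. Their median difference was 1.75 (1.33 without antibody). Nfkbiz encodes an atypical IkB that helps switch on secondary response genes, and its FPKM was 2.74 and 2.92 with antibody alone and 100.4 and 103 with LPS (4.75 ± 0.11 (SE)). The subunit gene Nfkb2 went from 10.6 and 14 to 117 and 102, and Socs3, an inhibitor of cytokine receptors, from 2.31 and 3.27 to 65.4 and 55. Traf1, a signalling adaptor of the TNF receptors, rose by 3.06 ± 0.13. Groups were apart in all 4. Cyld, a deubiquitinase that holds NF-kB back, fell by 0.43 ± 0.13, a call lost with size factors. Of 23 tested immediate early genes, which are induced without new protein synthesis, 16 rose and 3 fell, against the same shares of all genes. The phosphatase gene Dusp2 (3.88 ± 0.23), the mRNA decay factor Zfp36 (3.83 ± 0.23) and the nuclear receptor Nr4a1 (3.09 ± 0.18) rose most.

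The sensors of LPS moved in different directions. Tlr4 fell from 7.11 and 7.73 to 2.09 and 2.38 (-1.38 ± 0.15 (SE), adjusted p = 2.7e-04). Cd14 rose from 600.5 and 757 to 2108 and 1854 (1.55 ± 0.20 (SE), adjusted p = 6.5e-04). Ly96, which encodes MD-2, was not called, with 5.03 and 3.46 against 4.87 and 6.87 (0.39 ± 0.21 (SE), adjusted p = 0.17). Of 22 tested genes of TLR signalling, 4 rose and 10 fell, against 15.4% and 31.7% of all genes, with a median of -0.28 (-0.39 without antibody). The list's median came to -0.11 after size factors, -0.13 after quantile normalization and -0.06 once the length trend was taken out. All genes stood at 0.01, -0.04 and 0.004 under the same scalings, and at -0.15 as deposited. The list's median was below that of all genes each time. Tlr13 and Tlr7, receptors of bacterial ribosomal RNA and of single-stranded RNA, fell from 10 and 8.49 to 1.71 and 1.3 and from 27 and 24.4 to 6.96 and 6.85. The kinase gene Irak2, which prolongs TLR signalling, rose from 9.14 and 6.86 to 48.8 and 48.8. The inhibitory kinase-like gene Irak3 rose by 1.04 ± 0.22. Tlr2, the receptor of bacterial lipoproteins, had 43.9 and 51.5 against 53.1 and 54 and was not called.

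Interferon-stimulated genes rose together. Of 48, 42 were tested, 32 rose and 1 fell, against 15.4% and 31.7% of all genes, with a median of 1.65. Without antibody 30 rose and 2 fell, against 17% and 37.5% of all genes, with a median of 1.59. Isg15, a ubiquitin-like antiviral protein gene, had 14.3 and 22 with antibody alone and 422 and 378 with LPS (4.42 ± 0.20 (SE), adjusted p = 5.5e-06). Zbp1, a sensor of unusual nucleic acids, went from 0.609 and 0.548 to 36.1 and 33.8, and the guanylate-binding protein gene Gbp3 from 0.0895 and 0.128 to 20.5 and 23.3. Oasl1 stood at 21.5 and 19.3 and then 449 and 442. Irf7, the transcription factor that amplifies interferon production, rose from 29.6 and 23.9 to 279.5 and 259. Oas2, an antiviral enzyme gene of the same set, fell by 0.47 ± 0.13, again a call lost with size factors.

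The Isg15 promoter is shown for its run of interferon response matches. It lies at chr4:156200819-156201068 on the minus strand of GRCm38.p6 and is written in the direction of transcription. Capitals mark 3 overlapping matches to the motif GAAA, any 2 bases, GAAA, which together span the bases from 78 to 57 before the start.
Isg15: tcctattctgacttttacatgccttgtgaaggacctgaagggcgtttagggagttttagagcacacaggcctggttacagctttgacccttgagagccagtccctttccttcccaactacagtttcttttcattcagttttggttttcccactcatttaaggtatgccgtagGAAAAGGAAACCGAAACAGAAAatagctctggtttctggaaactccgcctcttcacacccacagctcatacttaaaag
The motif occurred in 3.1% of all windows and in 17 of 42 windows (40.5%) of the interferon-stimulated genes.

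Effector genes were called in both directions, with falls near their share among all genes (15.4% of all were called higher and 31.7% lower). Of 26 genes of nitric oxide, prostaglandin, leukotriene and antimicrobial products, 22 were tested, 12 rose and 7 fell, with a median of 1.12 (0.90 without antibody). Without replicate 1 of the combination 4 fell, and without replicate 2 of it 3 did. Acod1, which makes the antimicrobial metabolite itaconate, went from 25.1 and 19.6 to 1667 and 1645 (6.16 ± 0.16 (SE)). The acute-phase gene Saa3 went from 0.304 and 0.983 to 114 and 74.9, and Nos2, the inducible nitric oxide synthase, from 18.2 and 13.3 to 65.5 and 53.9. Prostaglandin genes moved apart from one another. Ptgs2 rose while Ptgs1, the constitutive cyclooxygenase, fell from 3.51 and 4.9 to 0.101 and 0.0529. Alox5, the enzyme that starts leukotriene synthesis, fell from 30.1 and 24.9 to 3.12 and 2.67 (-2.87 ± 0.14 (SE), adjusted p = 7.7e-06). Outside the list, Hpgd, which inactivates prostaglandins, fell from 32 and 23.8 to 2.05 and 2.92, and the prostaglandin D synthase gene Hpgds from 16.3 and 16.4 to 4.08 and 4.34.

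Of 18 tested genes of antigen presentation and costimulation, 14 rose and 1 fell, against 15.4% and 31.7% of all genes. Their median was 0.97 (0.74 without antibody). The costimulatory gene Cd40, the receptor for T cell help, went from 1.02 and 1.31 to 72.5 and 71.3 (5.07 ± 0.12 (SE)). Cd80, a ligand of CD28 on T cells, rose from 2.96 and 2.45 to 27 and 28.5, and Cd274, the inhibitory ligand PD-L1, from 0.778 and 0.746 to 7.54 and 8.26. Activating and inhibitory ligands both rose. Cd74, the invariant chain of class II molecules, fell by 0.46 ± 0.13, and this call too was lost with size factors.

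Surface and secreted proteins changed in both directions. Of 19 tested genes of phagocytosis (Fc receptors, lectins and integrins among them), 11 rose and 4 fell, against 15.4% and 31.7% of all genes. Their median was 0.57 (0.50 without antibody). The C-type lectin gene Clec4e rose from 16.8 and 15.9 to 169 and 183, and Itga5, a subunit of the fibronectin receptor, from 8.48 and 9.25 to 68.8 and 63.8. Trem2, a lipid-sensing receptor, fell from 19.2 and 35.8 to 3.82 and 3.2, and the IgG receptor gene Fcgr3 from 6.43 and 6.05 to 0.546 and 0.517. Of 8 tested matrix proteases and inhibitors, 5 rose and 1 fell. The gelatinase gene Mmp9 went from 0.755 and 0.537 to 44.6 and 37.2. Plaur, the receptor of urokinase, rose from 6.72 and 6.54 to 81.1 and 77.6, while Plau, urokinase itself, fell from 20.1 and 28.6 to 13.9 and 13.2 (-0.78 ± 0.17 (SE)).

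Of 20 macrophage genes, 16 were tested. Every deposited gene was detected in every library, so the detection of these 16 does not test the macrophage label of the line. Of the 16, 6 rose and 6 fell, against 15.4% and 31.7% of all genes. The F4/80 gene Adgre1 rose from 8.26 and 10.8 to 80.1 and 68.4. Csf1r, the receptor of the growth factor M-CSF, fell from 259 and 255 to 78.9 and 73.8, and Cx3cr1, the fractalkine receptor, from 81.3 and 56.5 to 27.1 and 24.5. Their median was -0.13 as deposited and 0.05 with size factors. The list's summed FPKM ranged from 4674 to 5974 over the 4 libraries compared.

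The antibody's own target was among the genes that rose. Cd36 had an FPKM of 0.169 and 0.223 with antibody alone and 7.98 and 9.08 with LPS added (chr5:17781690-17888801). Both libraries of the combination lay above both of the antibody, by 2.99 ± 0.11 (SE) (adjusted p = 2.4e-06). Without antibody it went from 0.04 and 0.117 to 4.71 and 5.57, a difference of 2.51 ± 0.11 (SE). The difference between the responses was 0.49 ± 0.16 (SE) and was not called (adjusted p = 0.31). As a ratio of mean FPKM the order is the opposite, 43.5-fold with antibody and 65.6-fold without, since the pseudocount exceeds the baselines. Those baselines rest on about 29 and 46 reads with antibody alone and 8 and 30 in untreated cells. Of the 9 scavenger receptors tested, 3 rose and 3 fell, against 15.4% and 31.7% of all genes. Msr1, scavenger receptor A, rose from 16.6 and 14.7 to 79.9 and 93.2, and Cxcl16, which binds oxidized lipoprotein on the surface, from 3.54 and 4.45 to 12.8 and 12.7. Colec12 fell from 26.8 and 24.8 to 7.89 and 8.93.

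Genes of cell division fell as a group. Of 36 mitosis genes, all tested, 34 fell and 0 rose, with a median of -1.63 (-1.27 without antibody). Of 30 DNA replication genes 26 fell and 0 rose, with a median of -0.94 (-1.05 without antibody). Among all genes 31.7% fell and 15.4% rose. Mki67, the proliferation marker Ki-67, had 80.1 and 50.4 with antibody alone and 9.15 and 11.8 with LPS (-2.50 ± 0.26 (SE), adjusted p = 2.5e-04). The mitotic kinase gene Plk1 went from 90.8 and 47.7 to 11.9 and 12.4, and Ccna2, cyclin A2, from 98.7 and 62.5 to 13.8 and 18.4. The anti-CD36 replicates were apart in these genes, and both still lay above the combination. Cdk1, with 26.5 and 45 against 22.3 and 23.8, and Pttg1, with 26.9 and 46 against 23.9 and 25.8, were the mitosis genes not called. The helicase gene Mcm7 fell from 87.3 and 90.2 to 26.1 and 24.8, and the DNA ligase gene Lig1 from 56.5 and 46.2 to 17.5 and 16.

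The Mki67 promoter is shown because it holds both elements found in promoters of mitotic genes. It lies at chr7:135716380-135716629 on the minus strand of GRCm38.p6. Capitals mark 2 matches to the cell cycle homology motif TTTGAA, 116 to 111 and 98 to 93 bases before the start, and 3 to CCAAT, 188 to 184, 166 to 162 (on the other strand) and 141 to 137 bases before it, none overlapping.
Mki67: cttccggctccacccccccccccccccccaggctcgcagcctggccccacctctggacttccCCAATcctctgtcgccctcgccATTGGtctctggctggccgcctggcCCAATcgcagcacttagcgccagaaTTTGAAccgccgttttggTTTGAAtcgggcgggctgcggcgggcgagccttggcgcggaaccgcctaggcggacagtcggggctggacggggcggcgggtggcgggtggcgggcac
TTTGAA occurred in 12.2% of all windows, in 24 of 32 windows (75%) of the mitosis genes and in 3 of 29 (10.3%) of the DNA replication genes. CCAAT occurred in 38% of all windows, in 75% of those of the mitosis genes and in 58.6% of those of the DNA replication genes. It was as frequent in the cholesterol synthesis genes, at 16 of 20 windows (80%), and the HIF targets had 48%. In the cytokine, chemokine, NF-kB and interferon-stimulated lists it ran from 16.7% (chemokines) to 38.1% (interferon-stimulated genes).

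Lipid synthesis genes fell. Of 24 tested genes of cholesterol synthesis, 17 fell and 0 rose, against 31.7% and 15.4% of all genes. Their median was -0.57 (-0.76 without antibody). In a fit on the 4 libraries compared 10 fell, where 2210 of all 10289 genes did. With size factors 12 fell, where 2357 of all genes did. Sqle, squalene epoxidase, had 37.7 and 36.1 with antibody alone and 14.8 and 15.2 with LPS (-1.24 ± 0.10 (SE)), and the mevalonate kinase gene Mvk went from 16.4 and 16.6 to 6.73 and 5.22. Of 22 tested genes of fatty acid synthesis and of PPARg and LXR lipid handling, 14 fell and 2 rose. With size factors 10 fell and 3 rose. With quantile normalization, and in the fit on the 4 libraries compared, 10 fell and 2 rose. The desaturase gene Scd1 fell from 57.4 and 41.9 to 12.1 and 12.5 and Scd2 from 236 and 282 to 59.2 and 61.6, and the cholesterol exporter Abcg1 fell from 11.7 and 9.67 to 2.81 and 2.61. Genes that rose were Fabp4, a fatty acid carrier, from 0.511 and 1.29 to 13.6 and 15.4, and Lpl, lipoprotein lipase, from 24.3 and 22.5 to 59.9 and 79.4. These genes of fatty acid uptake and transport stood on the other side from the synthesis genes named here.

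Hypoxia-inducible factor (HIF) targets fell, although the gene of the factor itself rose. Of 19 tested targets 14 fell and 2 rose, against 31.7% and 15.4% of all genes, with a median of -1.41. The median was -1.64 without replicate 1 of the combination and -1.17 without replicate 2. In cells without antibody 11 fell and 2 rose, against 37.5% and 17% of all genes, with a median of -1.11. Limma's test of the difference between the responses called 0 members (7 at an unadjusted p under 0.05, against 13.6% of all genes). The genes that rose were Hif1a, listed with its targets, and Car9, a carbonic anhydrase whose call was lost without either library of the combination. Hif1a rose from 31.9 and 27 to 47.3 and 60.1 (0.84 ± 0.16 (SE)). Bnip3, a mediator of mitophagy, had 106 and 127 with antibody alone and 14.6 and 14 with LPS (-2.93 ± 0.17 (SE), adjusted p = 1.5e-05). Ndrg1 fell from 46.7 and 36.5 to 5.75 and 4.77, and Egln1, the oxygen sensor that marks HIF for destruction, from 29.9 and 35.4 to 4.73 and 4.53. Pdk1, which diverts pyruvate from mitochondria, fell from 19.1 and 23.2 to 4.65 and 4.75. Of 18 glycolysis genes 11 fell and 0 rose, against 31.7% and 15.4% of all genes, with a median of -0.70 (-0.49 without antibody). With size factors 8 fell and 1 rose, and in a fit on the 4 libraries compared 8 fell. The median was -0.82 without anti-CD36 replicate 1 and -0.49 without replicate 2. The phosphofructokinase gene Pfkl went from 53.5 and 69.9 to 15.8 and 13.2, and Tpi1, triosephosphate isomerase, from 613 and 914 to 312 and 273.

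The Bnip3 promoter is shown for its hypoxia response matches. It lies at chr7:138909507-138909756 on the minus strand of GRCm38.p6, and capitals mark 2 overlapping matches to ACGTGC, 1 on each strand, which span the bases from 109 to 102 before the start.
Bnip3: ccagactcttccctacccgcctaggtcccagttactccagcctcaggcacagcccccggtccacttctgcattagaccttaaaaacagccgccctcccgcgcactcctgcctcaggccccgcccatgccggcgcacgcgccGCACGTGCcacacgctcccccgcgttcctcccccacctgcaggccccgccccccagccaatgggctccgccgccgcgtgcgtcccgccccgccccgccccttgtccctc
ACGTGC occurred in 8.5% of all windows and in 11 of 25 windows (44%) of the HIF targets.

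**Figure D2:**
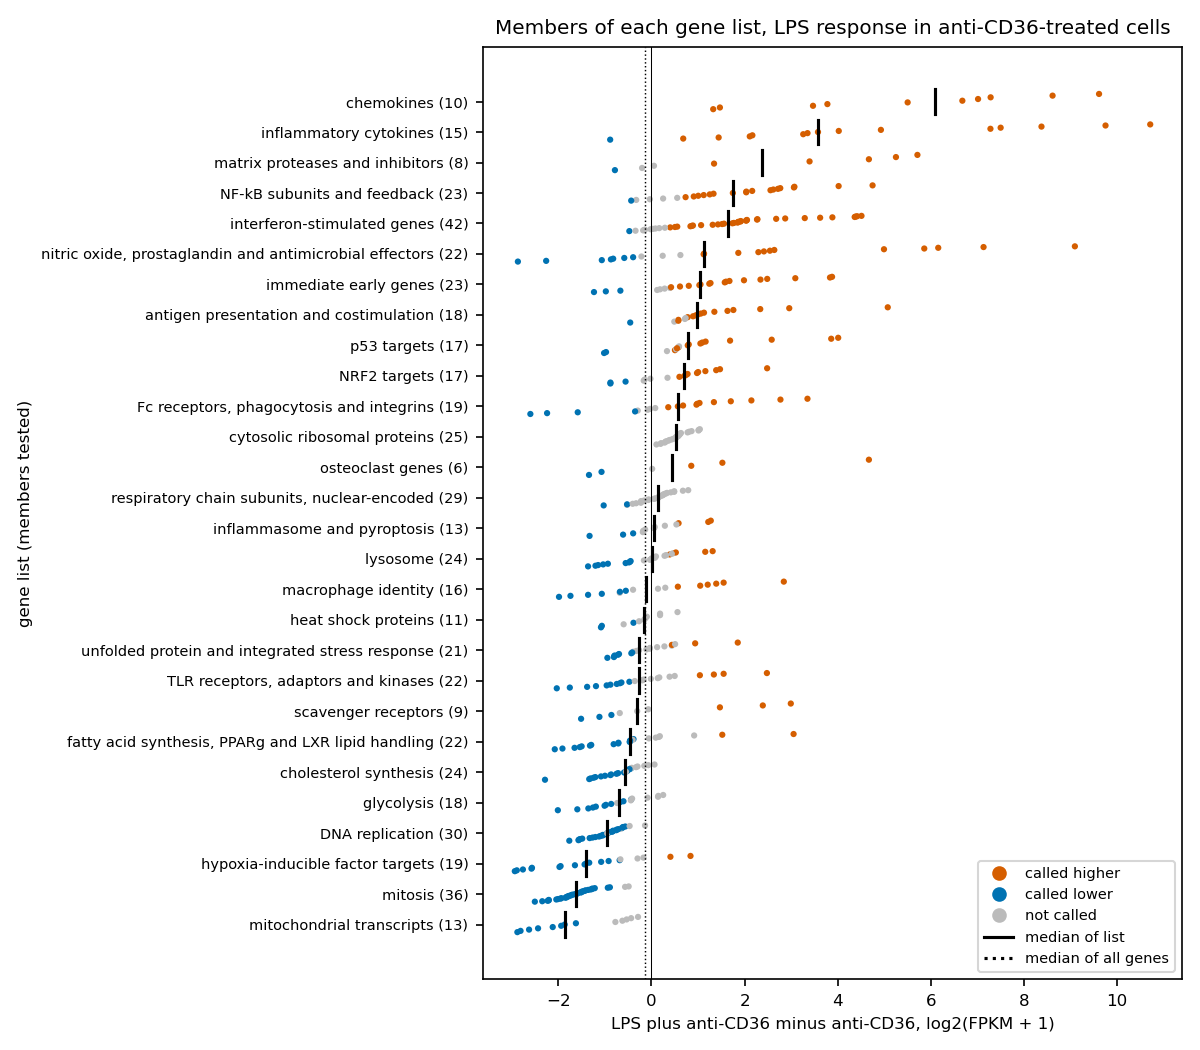
Log2 differences after LPS in antibody-treated cells for the tested members of each gene list, 1 point a gene, coloured by whether it was called higher, called lower or not called. Short bars mark each list's median and the dotted line the median of all genes. Chemokines have the highest median, at 6.09, and mitochondrial transcripts and mitosis genes the lowest, at -1.86 and -1.63.

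Stress genes were called in both directions. Of 17 tested p53 targets 12 rose and 2 fell, with a median of 0.78 (0.54 without antibody), led by the polo-like kinase genes Plk2, from 0.734 and 0.532 to 25.9 and 24.7, and Plk3, from 3.12 and 2.77 to 58.5 and 54. Trp53 itself fell by 0.98 ± 0.13. Of 17 tested NRF2 targets 10 rose and 3 fell, with a median of 0.71 (0.40 without antibody). In a fit on the 4 libraries compared 8 of them rose and 1 fell. The autophagy receptor gene Sqstm1 went from 52.9 and 63.2 to 346 and 311 and the cystine transporter gene Slc7a11 from 2.07 and 2.33 to 7.96 and 7.76. Genes of the unfolded protein response (3 higher, 8 lower of 21), lysosome genes (4 higher, 9 lower of 24), inflammasome genes (3 higher, 3 lower of 13), heat shock genes (0 higher, 3 lower of 11) and osteoclast genes (3 higher, 2 lower of 6) were called in few members or in both directions, against 15.4% higher and 31.7% lower among all genes. The medians of the lysosome, inflammasome and heat shock lists, between -0.16 and 0.05, changed sign with the scaling. Single libraries moved these counts. Without anti-CD36 replicate 2, 1 heat shock gene was called higher and 7 lower, with a median of -0.42, against 2 lower and a median of -0.02 without replicate 1. Lower calls in the unfolded protein response were 3 without replicate 1 of the combination, 5 without replicate 2, 4 in a fit on the 4 libraries compared and 5 with size factors, and higher calls were 5 without anti-CD36 replicate 2. Higher calls among lysosome genes were 7 without anti-CD36 replicate 2 and 2 without replicate 2 of the combination, replicate 2 of untreated cells or either LPS library. Without replicate 1 of the combination 1 inflammasome gene was lower. Ddit3, the transcription factor CHOP, rose from 4.96 and 5.89 to 22 and 22.3, and Xbp1, a factor of the secretory pathway, fell from 99.5 and 99 to 52.6 and 49.5.

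Transcripts of the mitochondrial genome fell in part. Of the 13, 8 were called lower and 0 higher, against 31.7% and 15.4% of all genes, with a median of -1.86 (-0.93 without antibody). ND1, a subunit of respiratory complex I, stood at 7395 and 3229 with antibody alone and 575 and 765 with LPS (-2.88 ± 0.39 (SE)). ND2 had 5146 and 1543 against 354 and 453 and CYTB, of complex III, 6337 and 2929 against 648 and 748. Replicate 1 of the antibody was the highest library in all 3, and replicate 2 still lay above the combination. COX1, of complex IV, had 21439.5 and 9736 against 8162 and 10773 and ATP6, of the ATP synthase, 639 and 216 against 163 and 288, with overlapping groups in both, and neither was called. Without anti-CD36 replicate 1, 8 of the 13 were called lower, with a median of -1.38, and without replicate 2 all 13 were, with a median of -2.50. Without replicate 1 of the combination 5 were.

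Short and highly expressed nuclear genes depended on the antibody library used. None of 25 ribosomal protein genes was called by limma (2 at an unadjusted p under 0.05), and their median was 0.53. Without anti-CD36 replicate 2, 21 of them were called higher, and without replicate 1, 0 were, with a median of 0.04. Rps19 shows the spread, with 35.2 and 214 in the antibody replicates and 225 and 144 in the combination. Of 29 nuclear-encoded respiratory chain genes, 2 were called lower and 0 higher, against 31.7% and 15.4% of all genes. Without replicate 1 the calls were 11 lower and 0 higher, and without replicate 2 they were 2 lower and 16 higher. No direction is given for either group. The difference after LPS fell with exon length across genes (Spearman rho -0.145), as it did without antibody (-0.164). With a trend on length removed, 4 of the 25 ribosomal protein genes were called higher. Reads of ribosomal protein and mitochondrial genes can also match near-identical copies elsewhere in the genome, and the counting rule for such reads is not given in the sources used here.

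**Figure D3:**
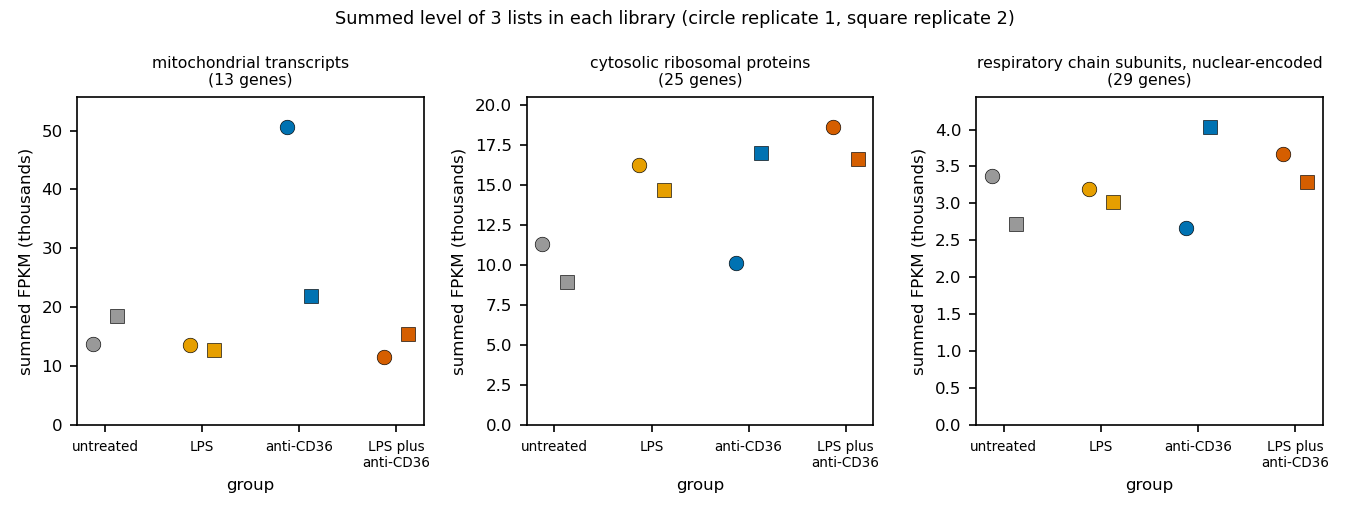
Summed FPKM of the 13 mitochondrial transcripts, 25 ribosomal protein genes and 29 nuclear-encoded respiratory chain genes in each of the 8 libraries, with circles for replicate 1 and squares for replicate 2. The anti-CD36 replicates are the pair furthest apart in all 3 panels, replicate 1 being higher for mitochondrial transcripts and lower in the other two.

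The same LPS contrast in cells without antibody shares no library with this one. It called 5614 genes (54.6%, with 60.9% at an unadjusted p under 0.05). Of all genes tested, 17% were called higher and 37.5% lower. Of the calls, 4028 were shared in the same direction, which is 83.2% of those with antibody and 71.7% of those without. All 1391 genes called with a difference of at least 1 in antibody-treated cells had the same sign without antibody. Across the 10289 genes the differences correlated at Pearson r = 0.926 and Spearman rho = 0.884, where genes are not independent replicates. In opposite directions, 10 genes were called.

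**Figure D4:**
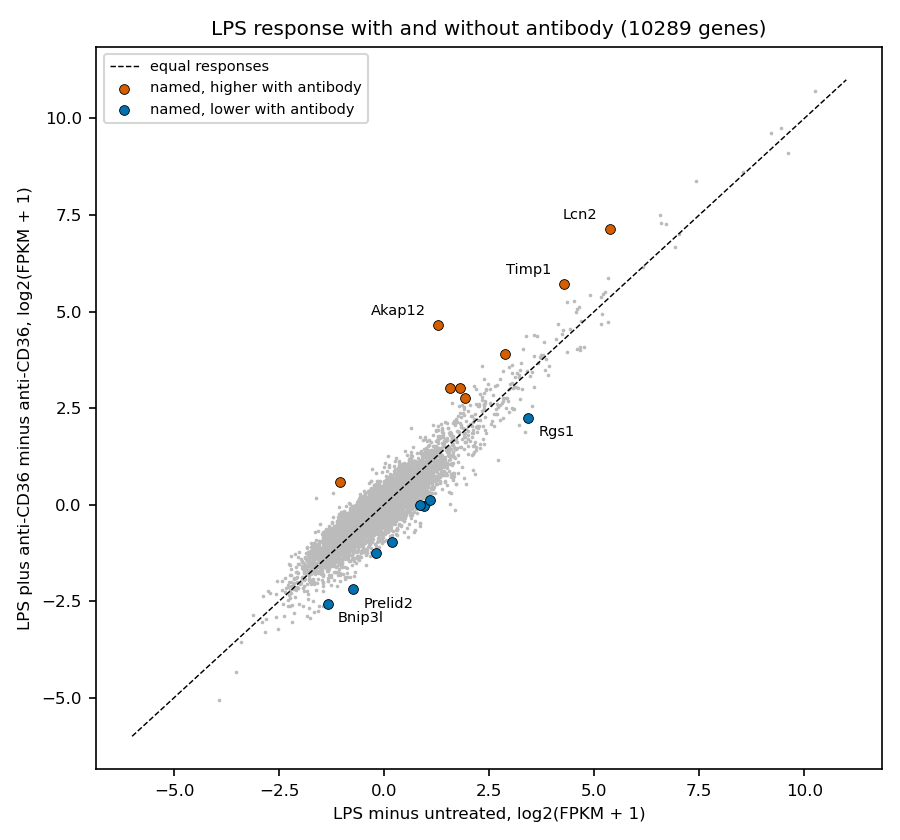
Log2 difference after LPS without antibody on the horizontal axis and with antibody on the vertical axis, 1 point for each of the 10289 genes, with the dashed line where both are equal. Colour marks the 16 named genes, 8 in each direction, with the smallest p for the difference between the responses. Points lie along the line (r = 0.926), and Akap12, the gene called, stands above it.

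By the test of the difference between the LPS responses, which asks whether LPS acted differently when the antibody was present, limma called 1 gene of 10289 (0.00972%), with 1396 (13.6%) at an unadjusted p under 0.05. That gene was Akap12, which encodes a scaffold protein for protein kinases A and C (chr10:4266380-4359470 of GRCm38). Its FPKM was 25.7 and 28.8 with both agents, 1.95 and 1.98 with LPS, 0.152 and 0.0932 with antibody alone and 0.139 and 0.292 without either. The combination stood above every other library, and antibody alone overlapped untreated cells. The LPS difference was 4.65 ± 0.11 (SE) with antibody and 1.29 ± 0.11 (SE) without, and the difference between them 3.36 ± 0.15 (SE) (adjusted p = 5.1e-04). Leaving out 1 library at a time kept the call, with adjusted p between 1.5e-04 and 0.015. With a pseudocount of 0.1 the difference was 4.2 and the adjusted p 0.055.

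No other gene was called, and those next in order are given as values. Lcn2, the iron-sequestering lipocalin of innate immunity, rose from 0.127 and 0.0399 to 168 and 136 with antibody and from 0.0959 and 0.0851 to 46.6 and 42.1 without. Its difference of differences was 1.75 ± 0.18 (SE) (adjusted p = 0.098). Timp1, an inhibitor of matrix metalloproteinases, had 85.8 and 83.7 in the combination and 26.3 and 24.4 with LPS. Its baselines were 0.423 and 0.883 with antibody alone and 0.445 and 0.283 in untreated cells. For Cd300e, an activating receptor of monocytes, the combination had 15.1 and 14.5 and LPS alone 6.08 and 6.7. Mcemp1, a membrane protein of myeloid cells, had 18.2 and 13.1 in the combination against 4.14 and 3.5 with LPS alone. Procr, the protein C receptor gene, had 19.7 and 18.6 against 9.07 and 9.76 in the same order. Itga5, the integrin gene given above, had 68.8 and 63.8 in the combination and 50.4 and 54 with LPS, from 8.48 and 9.25 with antibody alone and 13 and 13 in untreated cells. In these 6 genes the combination libraries exceeded the LPS libraries. The predicted gene Gm17828 had 27.7 and 44.9 in the combination against 21.7 and 24.7 with antibody alone, and 18.1 and 17.7 with LPS against 39.5 and 37 in untreated cells.

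On the lower side, Prelid2 had 52.7 and 44.9 with antibody and 9.24 and 10.5 with LPS added, against 31.5 and 32.2 in untreated cells and 18.9 and 18.3 with LPS alone (-1.45 ± 0.17 (SE), adjusted p = 0.14). The G protein regulator gene Rgs1 reached 11.2 and 12.2 in the combination and 25.9 and 22.2 with LPS. Bnip3l, a mitophagy receptor gene related to Bnip3, stood at 8.87 and 7.95 in the combination and 19.9 and 23.2 with LPS. Tnip3, Uchl5 and Zfp958 had higher values with antibody alone than in untreated cells, and little difference after LPS in antibody-treated cells. Without antibody LPS raised each of them, Tnip3 from 7.9 and 8.48 to 15.7 and 17.5 and Zfp958 from 3.44 and 3.85 to 7.38 and 7.39. For Uchl5, a deubiquitinase of the proteasome, antibody alone gave 44.2 and 44.9 and the combination 45.4 and 50.9, against 23.3 and 25.4 in untreated cells and 52.4 and 53.4 with LPS alone. In Clec5a, a myeloid lectin receptor, the order of the baselines was the same (29.5 and 25.9 with antibody, 12.4 and 14.8 untreated), while both LPS groups lay between 10.8 and 11.9. Il13ra1, a chain of the interleukin-13 receptor, was lowest in the combination, at 6.46 and 7.47, against 11.7 to 15.2 in the other 6 libraries.

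The number of such calls depended on the antibody libraries. Without anti-CD36 replicate 1 the test of the difference called 615 genes, and without replicate 2 it called 237, where the remaining library is assumed to vary like the other groups. In these fits the difference was 1.81 and 1.70 for Lcn2, 1.23 and 1.64 for Timp1 and -1.34 and -1.56 for Prelid2. With a pseudocount of 5 on all libraries, limma called Lcn2 and Timp1 (adjusted p = 0.036 and 0.012) and not Prelid2 (0.060). With the length trend removed it called Timp1 (adjusted p = 0.035). Of the 551 tested members of the gene lists, limma called 0 in the test of the difference on all libraries. An unadjusted p under 0.05 was found for 106 of them, against 1396 (13.6%) of all 10289 genes. Among lists with at least 5 tested members, the largest median differences in size were those of the mitochondrial transcripts (-0.94), the HIF targets (-0.46) and the matrix proteases and inhibitors (0.43), where the median of all genes was 0.06. The mitochondrial value depends on the antibody library used. That list's median LPS response with antibody was -1.38 without anti-CD36 replicate 1 and -2.50 without replicate 2, against -0.93 in cells without antibody. The HIF value depends on the combination library used. The HIF targets' median response was -1.64 without replicate 1 of the combination and -1.17 without replicate 2, against -1.11 in cells without antibody.

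**Figure D5:**
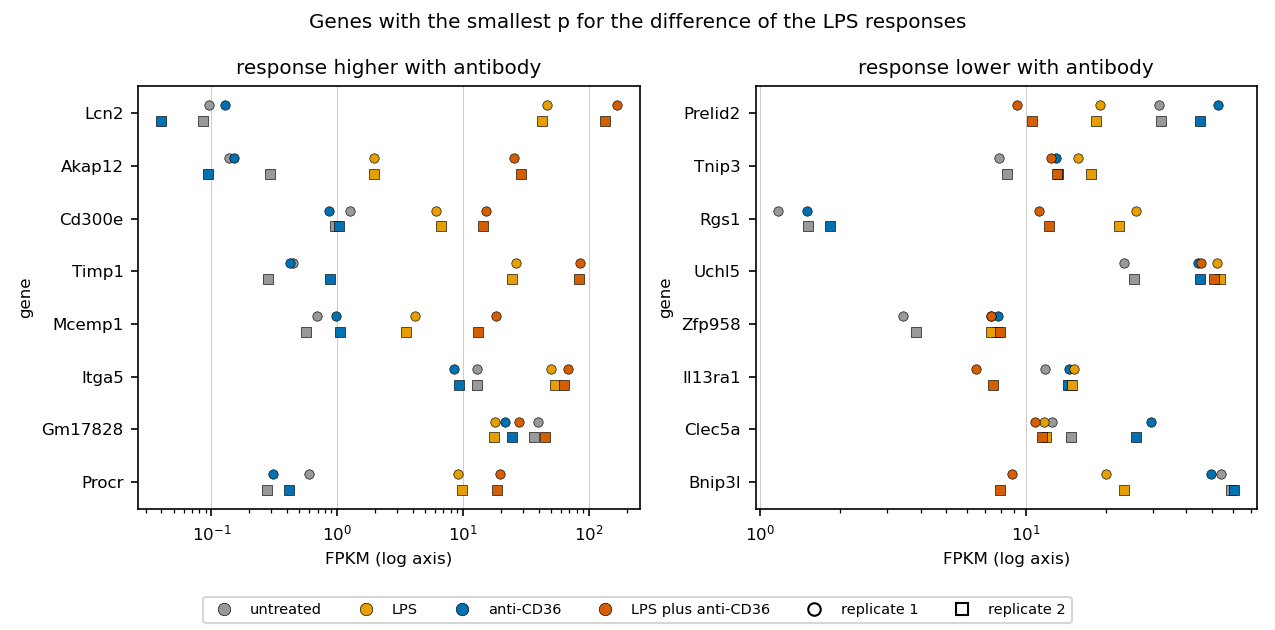
FPKM on a log axis in all 8 libraries, by group, of the 8 genes in each direction with the smallest p for the difference between the LPS responses, circles for replicate 1 and squares for replicate 2. Akap12 is at 25.7 and 28.8 in the combination and at or below 1.98 in the other 6 libraries.

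Few of the listed markers of other cell types were in the table. Because it holds only genes detected in every library, a missing marker is not shown to be absent from the cells. The 6 markers of fibroblasts, 5 of epithelium and 5 of endothelium were all outside the table. Of 7 B cell markers 3 were tested. Ighm and Blnk, at 67.8 to 110 and 13.9 to 34.6 over the 4 libraries, were not called, and Cd79b rose to 1.46 and 0.862. Without anti-CD36 replicate 2, 2 of these 3 were called lower. Their summed FPKM was 85.1 to 145 over the 4 libraries. Of 8 T and NK cell markers, Lck was tested and rose from 1.72 and 1.87 to 4.15 and 4.15. Csf3r, the only granulocyte marker tested of 7, had 4.92 and 3.39 against 4 and 3.48 and was not called, except lower without anti-CD36 replicate 2. Fscn1, the only dendritic cell marker tested of 8, rose from 0.18 and 0.156 to 2.82 and 2.9. The defining genes Cd3e, Ly6g and Flt3 were not among the genes tested.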

How the data were processed

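RNA from 8 libraries of RAW264.7 cells in 4 groups of 2 was measured by RNA sequencing, and samples were placed by their labels. The authors deposited 1 table of FPKM values by gene symbol. The aligner HISAT2 2.0.5 is listed, with mm10 and hg38 as builds, per the submitters' processing notes. What hg38 was for, the read counter, the annotation and strand use are not given in the sources used here. Although the labels name 10x Genomics, each gene has a single value per library, so the data were treated as bulk. No gene was at 0 in any library, so genes silent in any group may be missing. Rankings and list medians cover only genes detected throughout.

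Depth was recovered from the FPKM steps of short genes with few reads (90.5% to 95.1% of 131 to 222 genes came out as whole reads within 0.02). Since FPKM values are not counts, limma 3.58.1 in R 4.3.3 was fitted to log2(FPKM + 1) with 4 group means over all 8 libraries, 4 residual and 3.46 prior degrees of freedom, and empirical Bayes with a trend on expression. Calls were made at a two-sided Benjamini-Hochberg adjusted p under 0.05 over the 10289 genes tested. The test was run on simulated data in which every group had the same spread. The anti-CD36 libraries varied more than the others, so that run does not cover the case here. SE is the standard error from the fit.

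The comparison, gene lists and naming rule were chosen with earlier results of these data known. The rule named the 12 largest rises and falls among called genes without overlap and with a mean FPKM of at least 5, leaving out pseudogenes and predicted genes, the 8 genes in each direction with the smallest p for the difference between responses, up to 4 members of each list, and Cd36, Tlr4, Cd14 and Ly96. Other genes, and the promoters shown, were chosen after their values were seen. A few genes taken by the rule are not reported here. Promoters are from RefSeq on GRCm38.p6, and coordinates of genes from GENCODE M21, in which 10366 symbols matched. Alternatives were a pseudocount of 0.1 or 5, all genes unfiltered, only genes with a mean FPKM of at least 5, size factors, quantile normalization, mitochondrial genes left out, no trend, group weights, a replicate block, a fit on the 4 libraries compared, a minimum difference of 1 and each library left out. After seeing the data, a length trend removed and a crossed block were added.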

Additional observations from a re-analysis of the deposited data

Results flagged for a closer look

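The LPS response of Akap12, which encodes a scaffold of protein kinases A and C, differed between cells with and without the antibody by 3.36 ± 0.15 (SE) on the log2(FPKM + 1) scale, by limma's test of that difference (adjusted p = 5.1e-04). It drew attention because 2 groups of cells gave different effects under the same contrast. The LPS difference was 4.65 with antibody and 1.29 without. Both combination libraries, at 25.7 and 28.8, lay above the other 6. Its adjusted p ran from 1.5e-04 to 0.055 over the alternatives, and it missed the threshold with a pseudocount of 0.1. Each group held 2 libraries, too few for a check on single outlying libraries.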

How the results depend on the processing

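Calls in the LPS response of antibody-treated cells numbered 4844, and 3098 with a mean FPKM of at least 5, where fewer genes were tested, 1391 with a difference of at least 1, and 3216 (without replicate 1 of the combination) to 6381 (without anti-CD36 replicate 2) with 1 library left out. The test of the difference between the responses called 1 gene, 0 with a pseudocount of 0.1 (1301 at an unadjusted p under 0.05), 6 with a pseudocount of 5, 2 with the length trend removed, and 1 to 615 with 1 library left out. Without antibody the calls were 5614, and 3665, 1712 and 3598 to 7091 under the same filter, minimum and left-out libraries. For the counts that moved under other settings, the cause was not tested. The labels' replicate numbers were not used as pairs in the main fit. Correlations of deviations from the group means between same-numbered libraries were -0.645 to 0.53, and -0.337 between the antibody and the combination. With 2 libraries in a group they cannot show whether samples were paired. A replicate block gave 4443 calls with antibody, 5298 without and 1 for the difference. The crossed pairing, added after seeing the data, gave 5401, 6171 and 1. A fit on the 4 libraries compared called 3261 genes, and 1 weight per group, 0.268 for the antibody alone, 3487. 

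Of the 142 genes named by rule, 126 were called and 122 stayed called in the same direction in all alternatives that tested them. Gm17828, Txnip, Ftl1 and ND4L were lost in at least 1. Of the genes chosen after their values were seen, Car9, Cyld, Cd74, Oas2 and Lyz2 were lost in at least 1 alternative, as were 9 of the 10 called in opposite directions. Differences of uncalled genes changed sign as follows. With size factors Tnip3 stood at 0.139, Zfp958 at 0.143, Ighm at 0.073 and Csf3r at 0.038, and with quantile normalization Tnip3 at 0.092, Zfp958 at 0.125 and Csf3r at 0.072. With the length trend removed Tnip3 stood at 0.177, Zfp958 at 0.087 and Csf3r at 0.071, and with mitochondrial genes left out Uchl5 at -0.099 and Tlr2 at -0.039. With 1 library left out, Ndufa1 ran from -0.107 to 1.686, Ndufa2 from -0.184 to 1.535, Rps19 from -0.248 to 2.326, Ighm from -0.458 to 0.234, Csf3r from -0.325 to 0.106 and ATP6 from -1.553 to 0.005, the ends being the fits without one or the other anti-CD36 library. Zfp958 ran from -0.072 to 0.025 without one or the other library of the combination. Low values, and those of very short genes, rest on few reads, such as 2 to 15 for Il1a without LPS and 2 to 7 for Mir133a-2 in the combination.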

Other observations

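The genes here were chosen after their values were seen. Several of the larger rises in antibody-treated cells lay outside the gene lists. Hdc, which makes histamine, went from 0.222 and 0.251 with antibody alone to 46.3 and 46.6 with LPS, and without antibody from 0.253 and 0.36 to 30.4 and 27.3. Lta, the gene of lymphotoxin alpha, went from 0.257 and 0.378 to 57.1 and 54.5, and the uridine phosphorylase gene Upp1 from 0.373 and 0.462 to 53.2 and 42.9. Tnfrsf1b, the second TNF receptor, rose from 5.58 and 6.89 to 155 and 142. Mir155hg, the host transcript of a microRNA induced in activated macrophages, rose by 4.08 ± 0.17 and the niacin receptor gene Hcar2 by 4.21 ± 0.22. Bcl2l1, an inhibitor of apoptosis, rose from 12.7 and 11.7 to 71.3 and 68.2, the kinase gene Pim1 from 5.07 and 5.45 to 59.2 and 63.3, and Odc1, the first enzyme of polyamine synthesis, from 339 and 294 to 2584 and 2415. Spp1, osteopontin, reached 11393 and 12609 from 2227 and 2118.

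Among the falls outside the lists, Gpnmb, a glycoprotein of lysosome-rich macrophages, went from 116 and 70.1 to 14.2 and 13.6. The cell cycle transcription factor gene Foxm1 fell from 31.9 and 21.1 to 5.7 and 5.55 and E2f8 from 19.8 and 9.19 to 2.38 and 1.99. Ciart, a repressor in the circadian clock, fell from 8.47 and 10.4 to 0.904 and 1.01. Within the lists, Fos, an immediate early gene, stood at 13.6 and 10.3 in the combination and 3.65 and 5.29 with LPS, from 2.12 and 2.36 with antibody alone and 2.6 and 2.33 in untreated cells, and its difference between the responses was not called (1.34 ± 0.25 (SE), adjusted p = 0.21 by limma). Lyz2, lysozyme, fell from 2873 and 3747 to 1699 and 1444 with antibody and had 2729 and 2177 against 2240.4 and 2035 without (-0.88 ± 0.34 (SE) for the difference between the responses, adjusted p = 0.34 by limma).

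The 10 genes called in opposite directions had small differences. With antibody, Gm17828, Lrp10, Plcb3, Mtmr9 and Adcy9 were higher after LPS, by 0.30 (Mtmr9) to 0.62 (Adcy9), and without antibody they were lower. Kif18a, Rnf13, Glrp1, Clec7a and Slc17a6 stood the other way, with -0.51 (Slc17a6) to -0.31 (Glrp1) in antibody-treated cells. For Clec7a, the receptor of fungal beta-glucan, antibody alone had 1.95 and 1.48 and the combination 1.2 and 1.05, against 0.933 and 0.862 in untreated cells and 1.7 and 1.68 with LPS. For Adcy9, an adenylate cyclase gene, the values were 1.18 and 0.899 with antibody alone and 2.19 and 2.05 in the combination, against 3.06 and 2.96 in untreated cells and 2.36 and 2.12 with LPS. The difference between the responses was called in none of the 10 by limma, and the calls with antibody were lost in 1 or more alternatives for 9 of them, Adcy9 being the exception.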
